A study of Danio rerio with 12 samples.

Results

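The zebrafish segmentation clock and presomitic mesoderm genes *her1*, *her7*, *hes6*, *msgn1*, *tbx6* and *tbx16* were followed in whole embryos at 4.5 hours postfertilization (hpf), before gastrulation. All probe sets that the array annotation assigns to 1 of these 6 symbols were taken, which gave 8 of the 15617 probe sets on the Affymetrix Zebrafish Genome Array. All pools held 20 embryos of the ABTL strain, kept in embryo medium. The ethanol pools had 100 mM ethanol in the medium between 2 and 4.5 hpf, whereas the control pools had none. There were 6 ethanol arrays and 6 control arrays, numbered 1 to 6 in each treatment, and the arrays of 1 number were taken as the pair of 1 independent experiment. A pool averages over its embryos, so that differences between single embryos cannot be seen, and in RNA of whole embryos fewer cells that express a gene and less of its RNA in each cell cannot be told apart.

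Somites form by the rhythmic segmentation of the presomitic mesoderm. In zebrafish this rhythm comes from *her1* and *her7*, which encode basic helix-loop-helix repressors that shut off their own transcription, and Delta ligands with Notch receptors keep neighboring cells in step. *hes6*, also known as *her13.2*, encodes a partner with which the Her1 and Her7 proteins form dimers. *msgn1* encodes mesogenin, a basic helix-loop-helix factor that moves progenitors toward presomitic mesoderm. *tbx16* (*spadetail*) and *tbx6* encode T-box factors, of which Tbx16 acts early in the migration of mesoderm from the margin and Tbx6 later, where segment borders are set. The gene called *tbx6* here is the one known earlier as *tbx24*, and the gene that once bore the name *tbx6* is *tbx16l*.

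Values are MAS5 signals, the background-corrected brightness of a probe set after scaling of the array. Array medians lay between 98.6 and 106.6 with ethanol and between 91.6 and 101.8 in controls. A mean of 50 in at least 1 treatment was required, and log2 signals of the 9767 probe sets that reached it were fitted in limma by treatment and by experiment. Calls needed an adjusted p (Benjamini-Hochberg) under 0.15, together with p under 0.03 before adjustment and a change of 1.25-fold or more. Of the 8 probe sets, 6 were tested and represent 5 of the 6 genes. The only *tbx6* probe set and 1 of 2 *msgn1* probe sets lay under the minimum. With ethanol, 4 of the 6 tested (*her7*, *msgn1*, *her1* and *hes6*) were lower and 0 were higher in limma (4 lower and 0 higher at an unadjusted p under 0.05). Over all tested probe sets, 5.40% were called, 1.62% as lower (158) and 3.78% as higher (369). At an unadjusted p under 0.05, 533 of the 9767 were lower and 1247 were higher. The same 4 were lower in 6 of 6 experiments, as were 3.84% of all tested probe sets. The balance of these calls depends on the scaling, with 146 lower and 103 higher after quantile normalization and 287 lower and 120 higher after median centring of the arrays. The median log2 fold change was -0.76 over the 6 tested probe sets and 0.05 over all tested ones. Without the experiment term limma called none of the 4, with adjusted p of 0.263 to 0.476, although all 4 had an unadjusted p under 0.05.

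**Figure D1:**
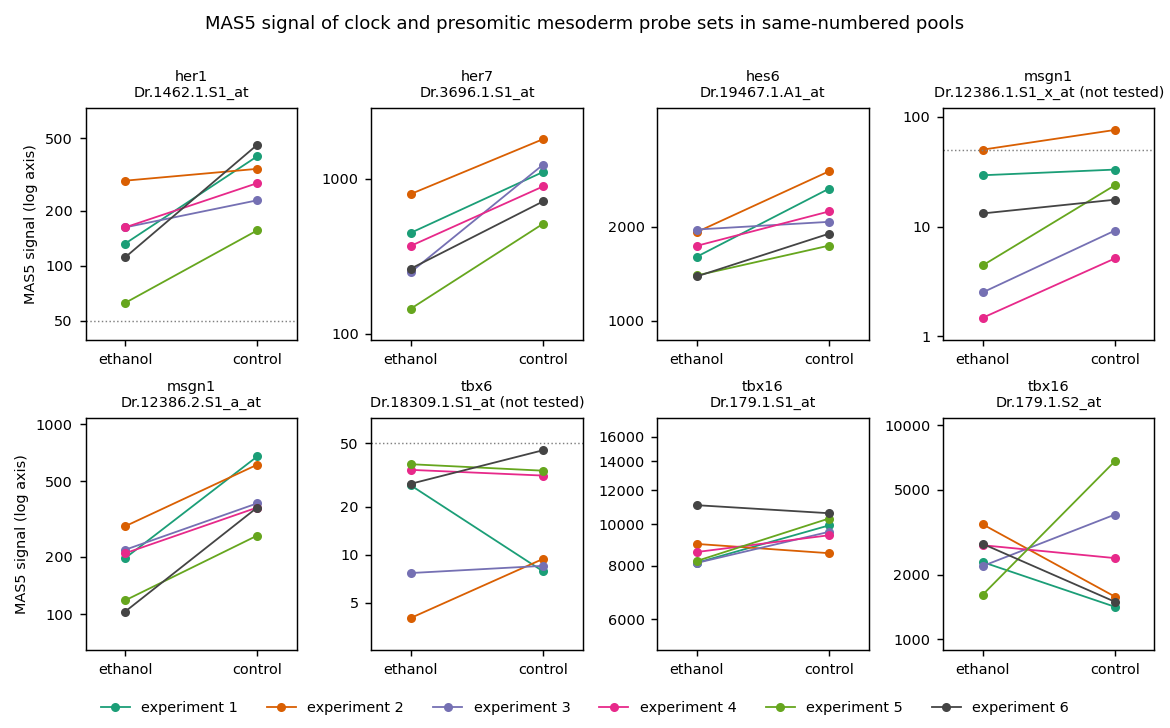
MAS5 signal (log axis, own scale in each panel) of the 8 probe sets in the ethanol pools (left) and control pools (right), with a line for each of the 6 experiments and a dotted line at a signal of 50 where it falls in the panel. All 6 lines slope down toward ethanol for *her1*, *her7*, *hes6* and both *msgn1* probe sets (1 of them not tested). Those of *tbx6* and *tbx16* run in both directions.

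*her7* had the largest change of the 6 tested probe sets. Its signal (NCBI gene 58132) ranged between 145 and 798 in ethanol pools (median 316) and between 512 and 1802 in control pools (median 999). Thus, 5 of 6 ethanol pools lay below the lowest control pool, the exception being experiment 2. No probe set of the 6 genes had groups without overlap, a state found for 0.594% of all tested probe sets. Within the pairs, the ethanol pool held 40.5%, 44.3%, 20.3%, 41.4%, 28.2% and 36.8% of the *her7* signal of its control in experiments 1 to 6. The decrease was therefore deepest in experiments 3 and 5 and similar in the others. The log2 fold change was -1.55 (SE 0.16, 95% interval -1.92 to -1.19, adjusted p = 0.0221 from limma), a 2.94-fold decrease. An exact permutation test, which reversed the sign of the 6 paired log2 ratios in all combinations, gave a two-sided p = 0.03125, the smallest it can give for 6 pairs. The call held when any 1 experiment was left out, with log2 fold changes of -1.63 to -1.40.

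*her1*, the other oscillating repressor gene, lies next to *her7* in the RefSeq annotation, and another annotated gene overlaps both. The *her1* signal (NCBI gene 30287) ranged between 62.5 and 292 in ethanol pools (median 147) and between 156 and 459 in control pools (median 311). The groups overlapped more than for *her7*, with 3 of 6 ethanol pools below the lowest control pool. The ethanol pool held 33.3%, 86.0%, 71.0%, 57.1%, 40.0% and 24.2% of the *her1* signal of its control in experiments 1 to 6. Unlike *her7*, the decrease was deepest in experiments 6 and 1 and small in experiment 2. The log2 fold change was -1.08 (SE 0.24, 95% interval -1.62 to -0.54, adjusted p = 0.103 from limma), with all 6 ratios below 0 (sign reversal, exact p = 0.03125). The call was lost without experiment 1 (log2 fold change -0.98, adjusted p = 0.193), 3 (-1.20, adjusted p = 0.192), 4 (-1.13, adjusted p = 0.190), 5 (-1.03, adjusted p = 0.206) or 6 (-0.89, adjusted p = 0.169).

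*hes6*, the dimer partner gene, fell less. Its signal (NCBI gene 373116) ranged between 1389 and 1962 in ethanol pools (median 1673) and between 1742 and 3012 in control pools (median 2159). In 4 of 6 ethanol pools it was below the lowest control pool, and experiments 2 and 3 were the exceptions. The ethanol pool held 60.6%, 63.9%, 94.5%, 77.6%, 80.3% and 73.0% of the control signal in experiments 1 to 6. Experiment 3, in which *her7* had its deepest decrease, had the smallest one of *hes6*. The log2 fold change was -0.43 (SE 0.11, 95% interval -0.67 to -0.19, adjusted p = 0.120 from limma), a 1.35-fold decrease with all 6 ratios below 0 (exact p = 0.03125). The call was lost without experiment 1 (log2 fold change -0.37), 2 (-0.39), 3 (-0.50), 4 (-0.44), 5 (-0.45) or 6 (-0.43), with adjusted p of 0.188 to 0.222.

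*msgn1* (NCBI gene 360135), the presomitic mesoderm gene, has 2 probe sets, of which 1 was tested. On that one (suffix S1_a_at), the signal ranged between 103 and 290 in ethanol pools (median 203) and between 259 and 676 in control pools (median 374). As for *her7*, 5 of 6 ethanol pools lay below the lowest control pool and experiment 2 was the exception. The ethanol pool held 29.2%, 47.5%, 57.0%, 57.4%, 45.7% and 28.3% of the *msgn1* signal of its control in experiments 1 to 6. The deepest decreases were in experiments 6 and 1, as for *her1*. The log2 fold change was -1.24 (SE 0.16, 95% interval -1.62 to -0.86, adjusted p = 0.0494 from limma), a 2.36-fold decrease (exact p = 0.03125), and the call held without any 1 experiment (log2 fold changes of -1.32 to -1.12). The second probe set carries the suffix x_at, which Affymetrix gives to probe sets that may also bind other transcripts. Its signal ranged between 1.48 and 50.3 in ethanol pools (median 8.81) and between 5.13 and 76.0 in control pools (median 20.7), so that only the pools of experiment 2 reached 50 in either treatment. At such signals a ratio carries little weight, and this probe set was not tested in limma. Its 6 log2 ratios were all below 0 (sign reversal, exact p = 0.03125), between -2.42 and -0.17 with a mean of -1.21. They were deepest in experiment 5 and shallowest in experiment 1, an order that was not that of the tested probe set.

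*tbx16* (NCBI gene 30264), which acts at the blastoderm margin, did not pass the test on either probe set. On the first (suffix S1_at), the signal ranged between 8115 and 11066 in ethanol pools (median 8403) and between 8550 and 10599 in control pools (median 9758). The ethanol pool had 81.8%, 105%, 84.6%, 91.4%, 79.6% and 104% of the signal of its control in experiments 1 to 6. The log2 fold change was -0.14 (SE 0.09, 95% interval -0.36 to 0.07, adjusted p = 0.441 from limma), and 4 of 6 ratios were below 0 (exact p = 0.156). The interval does not reach a 1.5-fold change in either direction. On the second (suffix S2_at), the signal ranged between 1612 and 3441 in ethanol pools (median 2520) and between 1416 and 6785 in control pools (median 1986). Here the control pools were the more variable ones, with the highest signal in experiment 5, where the ethanol pool had its lowest. The log2 ratio of this probe set was 0.69, 1.12, -0.80, 0.20, -2.07 and 0.90 in experiments 1 to 6, and its log2 fold change was 0.01 (SE 0.40, 95% interval -0.92 to 0.93, adjusted p = 0.995 from limma). The 2 *tbx16* probe sets therefore differed in precision, and the second allows changes of nearly 2-fold in both directions.

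*tbx6* (NCBI gene 192294), which acts when segment borders form, had low signals throughout. They ranged between 4.01 and 37.0 in ethanol pools (median 27.5) and between 7.86 and 45.3 in control pools (median 20.4), and none of the 12 reached 50. The log2 ratio was higher in 3 experiments and lower in 3, between -1.23 and 1.79. At this signal a change of *tbx6* was not detectable, which does not show that there was none.

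**Figure D2:**
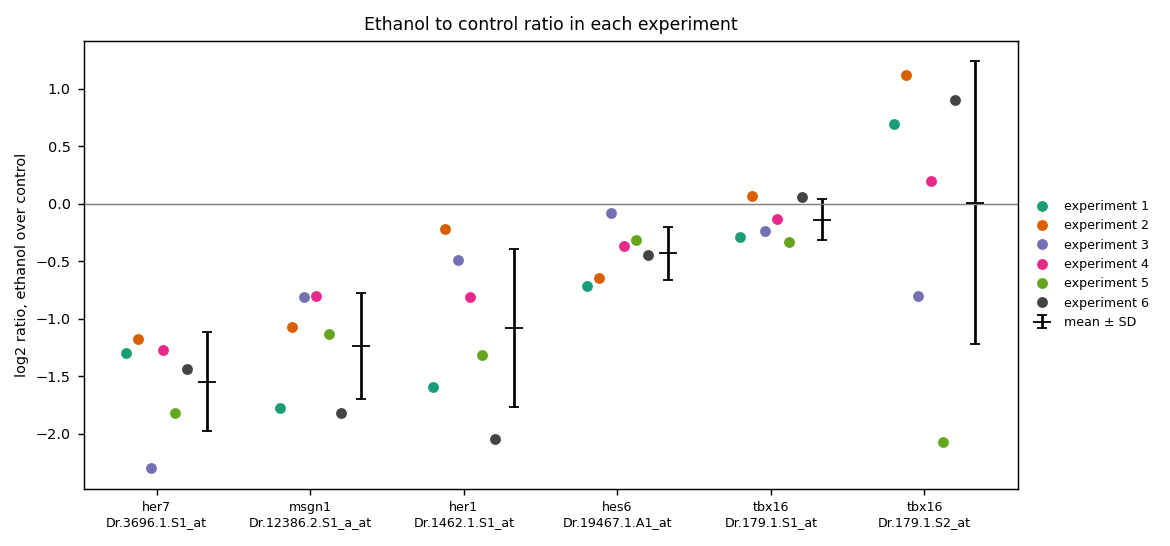
Log2 ratio of ethanol over control signal in each of 6 experiments (colored points) for the 6 tested probe sets, with the mean and SD over experiments (black). The ratios of *her7* lie between -2.30 and -1.18 and those of *hes6* between -0.72 and -0.08, whereas those of the second *tbx16* probe set spread between -2.07 and 1.12.

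The sizes of the decreases were set against each other within experiments, with the tested probe set of highest signal for each of the 5 genes, in 10 pairs of genes by the same sign-reversal test. The difference of the *her7* log2 ratio from that of *hes6* averaged -1.12 (SD 0.64, n = 6, exact p = 0.03125, adjusted p = 0.0625 over the 10 pairs). Against *tbx16* the difference of *her7* was -1.41 (SD 0.37, n = 6, exact p = 0.03125, adjusted p = 0.0625). The *msgn1* ratio differed from that of *hes6* by -0.81 (SD 0.36, n = 6) and from that of *tbx16* by -1.09 (SD 0.51, n = 6). The *her1* ratio differed from that of *tbx16* by -0.94 (SD 0.70, n = 6). All were lower in 6 of 6 experiments with the same exact p and adjusted p. Thus, 5 of 10 pairs differed at an adjusted p under 0.15. For *tbx16* these comparisons used its first probe set. On the second, the log2 ratio of experiment 5 was -2.07, lower than those of *her7* (-1.82), *her1* (-1.32) and *msgn1* (-1.13). With the probe sets of each gene averaged, or with 50 added before the log2, 5 pairs differed, and after quantile normalization 7 did. Without these changes, *her1* and *hes6* differed by -0.65 (SD 0.68, n = 6, exact p = 0.0938, adjusted p = 0.156), and *hes6* and *tbx16* by -0.29 (SD 0.33, n = 6, exact p = 0.125, adjusted p = 0.179). Among the 3 genes with the largest decreases, the differences did not pass. The *her7* ratio differed from that of *msgn1* by -0.32 (SD 0.74, n = 6, exact p = 0.375, adjusted p = 0.417) and from that of its neighbor *her1* by -0.47 (SD 0.87, n = 6, exact p = 0.25, adjusted p = 0.312), and each was lower for *her7* in 4 of 6 experiments. *msgn1* and *her1* differed by -0.16 (SD 0.40, n = 6, exact p = 0.469, adjusted p = 0.469).

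Signals of the clock genes also differed between experiments within a treatment, least so for *hes6*. *her7* varied 5.51-fold over the ethanol pools and 3.52-fold over the control pools, and *her1* 4.67-fold over ethanol and 2.94-fold over control pools. *msgn1* varied 2.82-fold over ethanol and 2.61-fold over control pools, and *hes6* 1.41-fold over ethanol and 1.73-fold over control pools. In *tbx16*, the range was 1.36-fold over ethanol and 1.24-fold over control pools on the first probe set, and 2.13-fold over ethanol and 4.79-fold over control pools on the second. On the log2 scale, the median range over all tested probe sets was 0.76 over ethanol and 0.88 over control pools. For *her7* the range was 2.46 over ethanol and 1.81 over control pools. The ranges of *her1*, *msgn1* and the second *tbx16* probe set also lay above the medians in both treatments. Those of *hes6* and the first *tbx16* probe set lay below them in both, so that *hes6* varied less than a typical probe set. Some of the extremes fell in the same experiment for several genes, and others did not. The control pool of experiment 5 had the lowest signal of *her1*, *her7*, *hes6* and *msgn1*, and the ethanol pool of experiment 2 had the highest signal of *her1*, *her7* and *msgn1*. The highest control signal was in experiment 6 for *her1*, 2 for *her7* and *hes6*, and 1 for *msgn1*. The lowest ethanol signal was in experiment 5 for *her1* and *her7* and in experiment 6 for *hes6* and *msgn1*.

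The moderated F-test of experiment in limma was passed, at an adjusted p under 0.15, by 3 of the 6 tested probe sets, against 37.1% of all tested ones. These were *her7* (F = 13.6, adjusted p = 0.0151), *msgn1* (F = 6.04, adjusted p = 0.0619) and *her1* (F = 3.71, adjusted p = 0.138). *hes6* had an adjusted p = 0.166 and the *tbx16* probe sets 0.579 and 0.855. This count was 1 without experiment 2 and 1 without experiment 5. Treatment made up 56.7% of the sum of squares of the log2 *her7* signal and experiment 39.7%, which left 3.64% to the residual. For *msgn1* the shares were 60.6% and 32.5%, for *her1* 44.9% and 39.6%, and for *hes6* 45.1% and 44.0%. For *tbx16* they were 22.6% and 48.9% on the first probe set and 0.0033% and 21.7% on the second. Over all tested probe sets, the median share of treatment was 6.38% and that of experiment 63.4%. Experiment has more levels than treatment, so on average it takes the larger share even where neither has an effect. A high share of treatment goes with a call for ethanol, so that the shares of the 4 called probe sets add no separate evidence.

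**Figure D3:**
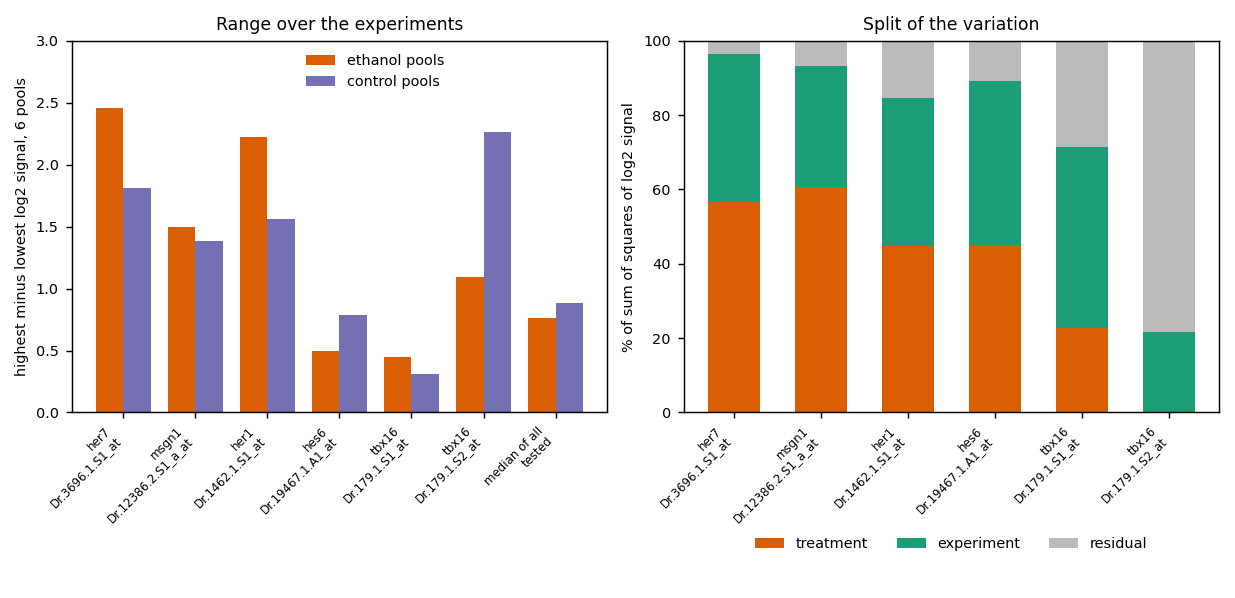
Left, range of the log2 signal over the 6 ethanol pools (orange) and the 6 control pools (purple) of each tested probe set, with the median over all tested probe sets at the right end. Right, percent of the sum of squares of the log2 signal that falls to treatment, experiment and the residual: for *her7* 56.7%, 39.7% and 3.64%, and for the second *tbx16* probe set 78.3% residual.

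Patterns over the 12 arrays were compared by the root mean square difference between log2 signals centered on each probe set's own mean. This mean was taken over both treatments together, so the change with ethanol is part of the pattern compared. Leaving out the members themselves, the 3 named genes closest to *her1* were the SoxB1 gene *sox2* (0.27), the Delta ligand gene *dlc* (0.29) and *prdm14* (0.36), on a scale where *her1* itself varied by 0.81. Closest to *msgn1* outside the members, on its own variation of 0.79, were *aldh1a2* (0.26), whose product makes retinoic acid, *sox2* (0.34) and a gene known only by a clone name (0.40). *her7*, which varied by 1.03, had the urate oxidase gene *uox* (0.53), *sox2* (0.55) and *dlc* (0.56) as the closest genes outside the members. The *dlc* probe set here was not the one closest to *her1*. Some members were as close to *her7* as these genes, with a difference of 0.46 for *msgn1* and 0.55 for *her1*. The difference of 0.39 between *her1* and *msgn1* was larger than those of the 3 genes closest to *her1*. *hes6* varied by only 0.32 and *tbx16* by 0.15, so that small differences from them are less telling. Outside the members, those closest to *hes6* were *mala.2* (0.12), *faua* (0.14) and *zgc:193505* (0.14), and those closest to *tbx16* were *hspa14* (0.08), *dnttip2* (0.10) and *epb41l3b* (0.10).

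Of the genes that act with the clock, a list of Notch ligands, receptors and modulators and other *her*, *hes* and *hey* genes, 19 of 36 were tested. Of these, 3 were lower with ethanol, 1 was higher and 15 did not pass, at a list median of 0.03 (log2). Of all tested probe sets, 1.62% were called lower and 3.78% higher. The 3 that fell are Delta ligand genes: *dlb* at 25.4 ± 10.2 in ethanol and 57.7 ± 35.7 in control pools (SD, n = 6 each), *dlc* at 176 ± 89.1 in ethanol and 300.0 ± 115 in control pools, and deltaD at 484 ± 249 in ethanol and 702 ± 237 in control pools. The annotation used here gives deltaD the symbol *dldh*. Their log2 fold changes were -1.11, -0.83 and -0.62, with adjusted p of 0.132, 0.148 and 0.0940 from limma. *dlb* and *dlc* were lower in 5 of 6 experiments and deltaD in 6 of 6. A second *dlc* probe set, not the one listed, was also called lower (-0.88, adjusted p = 0.0940). The other tested Delta ligand gene, *dla*, did not pass and went the other way. It was at 81.1 ± 35.3 in ethanol and 60.1 ± 45.2 in control pools (0.51, adjusted p = 0.411 from limma, higher in 4 of 6 experiments). *dlb* reached the signal minimum only through its control pools, so that its call and its size carry little weight, and with a minimum of 100 only *dlc* and deltaD of the 3 were tested and called. *her5*, a midbrain repressor gene of the same family, was higher (0.44, adjusted p = 0.103). Receptor genes did not pass, with *notch1a* at 614 ± 42.9 in ethanol and 588 ± 120 in control pools (log2 fold change 0.08, adjusted p = 0.778) and *notch3* at 467 ± 18.4 in ethanol and 462 ± 86.9 in control pools (0.03, adjusted p = 0.899). The repressor gene *her3*, at 48.4 ± 26.9 in ethanol and 131 ± 105 in control pools, did not pass (adjusted p = 0.226), and it too reached the minimum only through its control pools. On the listed probe sets, the 3 lower calls were all lost without experiment 1, 3, 4, 5 or 6. The *her5* call was lost without any 1 of the 6. After quantile normalization only deltaD of the 4 was still called.

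Of other presomitic and posterior mesoderm genes, 14 of 36 were tested, of which 6 were lower, 0 were higher (9 lower and 0 higher at an unadjusted p under 0.05 in limma) and 8 did not pass. Of all 9767 tested probe sets, 1.62% were called lower and 3.78% higher. At an unadjusted p under 0.05, 533 were lower and 1247 higher. The list median was -0.44, against 0.05 over all tested probe sets. *aldh1a2* had the largest decrease, to 76.8 ± 28.1 in ethanol pools against 162 ± 60.1 in control pools (SD, n = 6 each, log2 fold change -1.09, adjusted p = 0.0940). The others were *sp5l* (-0.87), a target of Wnt signals, the ligand gene *wnt5b* (-0.77), the caudal gene *cdx4* (-0.70), the forkhead gene *foxc1a* (-0.53) and *eve1* (-0.49), a homeobox gene of the ventral and posterior embryo. *tbx16l*, the T-box gene that once bore the name *tbx6*, showed -0.38 on the log2 scale (adjusted p = 0.307). *mespaa*, a gene of segment borders, was at 34.7 ± 18.5 in ethanol and 68.3 ± 19.6 in control pools, over the minimum in the controls alone, and did not pass (adjusted p = 0.173). *tbxta*, the brachyury gene of the margin, showed -0.28 (adjusted p = 0.270), *fgf8a* -0.08 (adjusted p = 0.782) and *snai1a* -0.05 (adjusted p = 0.802). Without experiment 3 none of the 6 was called, and without 1, 2, 4, 5 and 6 there remained 3, 3, 4, 3 and 4 of them, while all 6 kept a negative sign. Of 22 genes of early marginal mesendoderm, such as Nodal ligands and their targets, 0 were called in limma on their brightest probe set. Over all tested probe sets this share was 5.4%. The list also holds *tbxta* and *fgf8a*. At an unadjusted p under 0.05, 533 of all 9767 tested probe sets were lower and 1247 higher. On the brightest probe sets of the list, 4 were lower and 1 was higher at this p, at a median of -0.04. The nearest to a call was *gata6* (-0.34, adjusted p = 0.151 from limma, lower in 6 of 6 experiments). A second probe set of *lhx1a* was called lower in limma (-0.43, adjusted p = 0.139), and its brightest one showed -0.39 (adjusted p = 0.187).

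**Figure D4:**
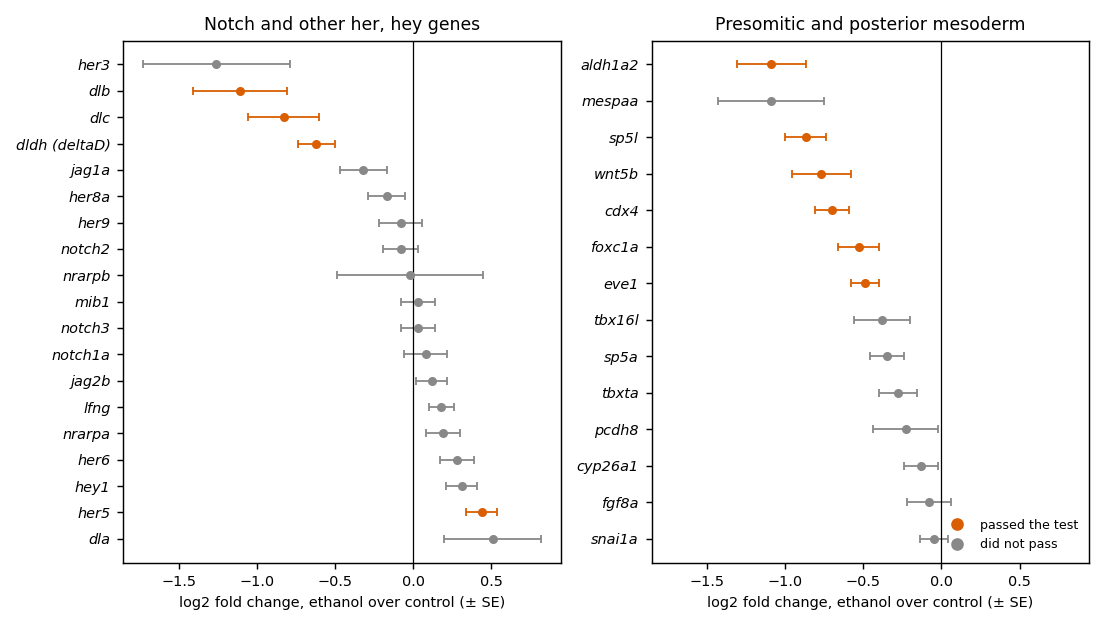
Log2 fold change of ethanol over control (points) with its SE (bars) for the tested genes of the clock partner list (left) and of the presomitic and posterior mesoderm list (right), orange where limma called the gene. On the left 3 Delta ligand genes lie below 0 (of which *dlb* had an ethanol mean under 50) and *her5* above it among those called, and on the right all 6 called genes lie below 0.

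Markers of other layers of the whole embryo moved in part with these genes. For comparison, 1.62% of all 9767 tested probe sets were called lower and 3.78% higher. At an unadjusted p under 0.05, 533 of them were lower and 1247 higher. Of 10 tested markers of the outer enveloping layer, 4 were lower (6 at an unadjusted p under 0.05) at a list median of -0.34, with *krt17* at 666 ± 182 in ethanol and 1239 ± 223 in control pools (SD, n = 6 each). None of the 4 abundant keratin genes passed, with log2 fold changes of -0.28 for *krt8* (adjusted p = 0.221, lower in 6 of 6 experiments), -0.22 for *krt5* (adjusted p = 0.273, lower in 5 of 6), -0.06 for *krt4* (adjusted p = 0.736) and -0.01 for *krt18a.1* (adjusted p = 0.977). The summed signal of that list was 33976 to 43074 in ethanol and 35153 to 47800 in control pools, and it was lower with ethanol in 5 of 6 pairs. Of 7 yolk syncytial layer markers, 2 were lower, *tfa* and *apoa1a* (5 at an unadjusted p under 0.05), at a median of -0.34. The summed signal of the 9 genes of this list on the array, tested or not, was 14926 to 18933 in ethanol and 15645 to 24243 in control pools. It was lower with ethanol in 6 of 6 pairs. Most of this sum came from *apoeb*, at 13776 ± 946 in ethanol and 16073 ± 2327 in control pools. *apoeb* was not called (-0.21, adjusted p = 0.245 from limma). Of 8 maternal transcripts, 1 was higher, *btg4* (0.55, adjusted p = 0.108), at a median of 0.07 and a sum of 28241 to 43641 in ethanol and 27000 to 38113 in control pools, higher with ethanol in 5 of 6 pairs. On its brightest probe set, no germ plasm gene (of 7) and no general blastoderm gene (of 6) was called in limma. At an unadjusted p under 0.05, 3 germ plasm genes were higher and 2 lower, and 1 blastoderm gene was higher. The list medians were 0.28 and 0.06. The germ plasm gene *dnd1* showed -0.59 on that probe set (adjusted p = 0.199 from limma), but a second one was called higher (0.44, adjusted p = 0.124). The germ plasm sum, over the 8 listed genes on the array, was higher with ethanol in 5 of 6 pairs and the blastoderm sum in 3 of 6. Of 8 genes of the neural plate and later tissue, 7 lay under the signal minimum in both treatments. The part of these layers and of the maternal transcripts in the decrease of the clock genes was not tested.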

How the data were processed

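RNA of 12 embryo pools was measured on Affymetrix Zebrafish Genome Arrays, with 1 colour. The authors made MAS5 signals in Affymetrix Expression Console, and deposited these intensities on a linear scale (in sources used here, its version is not given). The 2% trimmed mean is 500.1 on every array, which is not the target named in the methods, but such a factor cancels in every ratio. Gene symbols came from the annotation of the platform and were updated by gene identifier (10802 of 15617 have 1 symbol, 135 several, 4680 none). No sequence of a probe or gene was used here.

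Removed were 115 Affymetrix controls and 5735 probe sets that did not average 50 in either treatment, a minimum that replaces the methods' filter on detection calls, which were not used here. Treatment and experiment entered the limma fit of log2 signals as fixed factors (lmFit, then eBayes; limma 3.58.1, R 4.3.3). The methods have experiment as a random effect and Storey q in place of Benjamini-Hochberg. The steps were tested on simulated data. Exact tests and figures used Python 3.11.15, numpy 2.4.6, pandas 2.3.3, scipy 1.17.1 and matplotlib 3.10.9.

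Arrays were paired by the number in their label. After subtraction of the treatment mean, arrays of 1 number correlated at 0.448, 0.502, 0.373, 0.396, 0.456 and 0.669 for experiments 1 to 6. The closest ethanol array bore another number for the control arrays 1, 3 and 4.

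The genes, lists and tests were chosen with earlier results of these data known. Genes named are all probe sets of the 6 genes, called genes of 3 related lists (at most 6 a list), the 3 genes of closest pattern to each, and cell layer markers. Others, such as *her3*, *notch1a* and *tbxta*, were picked after their values were seen. In the lists each gene is given by the tested probe set with the highest mean. From the list of Notch genes the symbol *dld* was dropped, since the tables give it to another gene. Alternative settings dropped the experiment term or made it random, used the methods' ANOVA with Storey q, lowered the adjusted p to 0.05, removed the signal filter or raised it to 100, applied quantile normalization or median centring, added 50 before the log2, averaged probe sets of 1 gene, or left out 1 experiment at a time.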

Additional observations from a re-analysis of the deposited data

Results flagged for a closer look

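The *tbx16* signal (first probe set) of the ethanol pool of experiment 6, 11066, stood apart from the other 5 ethanol pools, which lay between 8115 and 8986. Its gap to the nearest pool was 0.671 of the whole log2 range, above Dixon's 95% critical value for 6 samples. This was the only such value among 24 groups of 6 checked (ethanol signals, control signals and log2 ratios of 8 probe sets), where chance flags about 1 group in 20. The control pool of experiment 6 also had the highest signal of its treatment, 10599, and the log2 ratio of the pair was 0.06.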

How the results depend on the processing

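The log2 fold changes of *her7*, *msgn1*, *her1* and *hes6* were negative under every alternative run, between -1.66 and -1.40, -1.34 and -1.03, -1.18 and -0.84, and -0.54 and -0.41 when all experiments were kept. All 4 stayed called with a random replicate block, the methods' ANOVA with Storey q, a minimum of 100, quantile normalization, median centring, log2(signal + 50) and averaging over probe sets of 1 gene. With no replicate block, 0 of them and 1 of all probe sets were called. At an adjusted p of 0.05, 2 (*her7* and *msgn1*) and 33 were called, and 1 of the tested probe sets passed the test of experiment. Without the signal filter, which adds many dim probe sets to the fit, 0 of the 4 and 2 of all probe sets were called. The count over all probe sets, 527, was 824 at a minimum of 100 and 249 after quantile normalization, and the median log2 fold change of all was 0.05, but -0.05 after median centring. Leaving out 1 experiment, with fewer samples, left 2 to 3 of the 4 genes and 23 to 145 of all probe sets called, 1 to 4 for experiment, and 5 to 6 differing pairs of genes. No call of *tbx16* arose under any alternative. The number of arrays and, for *tbx6* and 1 *msgn1* probe set, signals under 50 limit what could be detected.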
